A study of Mus musculus with 2 samples.

Results

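The 10 genes described here encode ETS transcription factors: Spi1, Spib, Fli1, Erg, Ets1, Ets2, Etv6, Elf1, Elk1 and Gabpa. They were chosen by name, as the rows of the deposited gene tables whose Ensembl identifiers carry these symbols in the GENCODE mouse annotation, and all 10 were found among the 43346 Ensembl gene rows. ETS factors share a winged helix domain that binds DNA around a GGAA core. In blood they set cell identity: PU.1 directs myeloid and B cell programmes and is antagonised by GATA1 in the red cell lineage, and Fli1 and Gabpa act on megakaryocyte genes. Friend virus is known to integrate beside Spi1 or Fli1 in the erythroleukemias it causes.

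RNA was sequenced, per the labels as polyadenylated RNA with paired ends, from mouse leukemia stem cells, a population of Friend-virus-infected cells that the labels describe as positive for CD34, CD133, Kit and Sca1. Adults of both sexes, 10 to 12 weeks old, were pooled to give the cells, their health state is given as unknown, and the mouse strain has to carry Fv2s, the allele of Fv2 that makes mice susceptible to Friend disease. There was 1 group with 2 biological replicates, no uninfected or untreated sample was part of it, and both replicates carry the same donor record, so their differences may in part be technical. As deposited, before any rounding, the expected counts summed to 23575315 in replicate 1 and 22541765 in replicate 2. Transcripts of the genes behind the 4 sort markers were scarce: Kit had 1.81 and 1.06 TPM (the deposited share of transcripts, a level per length) in replicates 1 and 2, Ly6a 1.45 and 2.15 TPM, Cd34 1.80 and 0.27 TPM, and Prom1 0.06 and 0 TPM. Genes of several blood lineages were present beside them. The 7 erythroid markers summed to 4298 TPM in replicate 1 and 1968 TPM in replicate 2, the 8 macrophage markers to 921 and 1248 TPM, and the 7 B lineage markers to 698 and 292 TPM. None of the markers in these 3 lists had 0 counts in both libraries. The 7 megakaryocyte markers summed to 374 and 367 TPM, of which Gp5 had 283 and 293 TPM. The 7 endothelial markers summed to 222 and 202 TPM, the 8 T and NK markers to 160 and 129 TPM. The 7 neutrophil markers summed to 58.4 and 37.4 TPM. Most of the macrophage sum came from C1qa (238 and 281 TPM), C1qb (212 and 293 TPM) and C1qc (368 and 639 TPM), all higher in replicate 2. Of the other macrophage markers, Cd68, Csf1r, Mertk and Adgre1 had less TPM in replicate 2 and Cd163 had more. In such bulk RNA, fewer cells of a type and less RNA per cell cannot be told apart.

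Of the 10 ETS factors, 9 had at least 1 TPM in both libraries and Erg reached it in replicate 1. Over all protein-coding genes, 41.6% had at least 1 TPM in both libraries. The median of the 10 factors' mean levels was 21.3 TPM. It was 0.55 TPM over all 21474 protein-coding genes and 15.4 TPM over the 8942 that reached 1 TPM in both. The gene levels of Etv6 and Ets2 rest mostly on short transcripts, as described below. By protein-coding transcripts alone, ranks 5 and 6 of the 10 were held by Ets2 (10.0 TPM) and Elf1 (6.61 TPM). By the deposited gene values the order ran from Etv6 through Spib, Spi1, Ets2, Ets1, Elk1, Elf1, Fli1 and Gabpa to Erg. The ranges of the libraries overlapped only between the neighbours Spi1 and Ets2 and between Ets2 and Ets1, so those neighbours did not differ beyond their spread. Levels were described without a test, as the series holds 1 group.

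**Figure D1:**
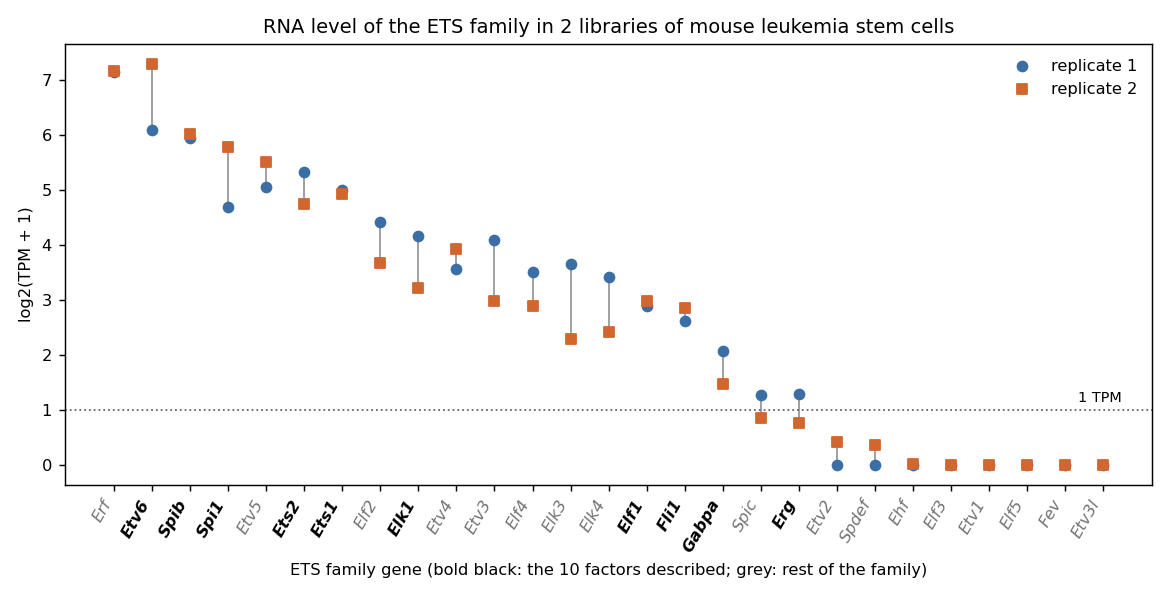
RNA level of the 27 ETS family genes, as log2(TPM + 1) on a linear axis, in replicate 1 (circles) and replicate 2 (squares), with a grey line joining the libraries of a gene and a dotted line at 1 TPM. The 10 factors described are in bold. Erf and Etv6 lead the family, and 5 genes at the right, among them the pseudogene Etv3l, sit at 0 in both libraries.

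The libraries were compared by the ratio of counts scaled by the trimmed mean of M values (TMM), and a gene was called apart where the exact 95% interval of the ratio lay wholly beyond 2-fold. That interval covers counting error only. Among 11708 protein-coding genes with at least 20 counts, 8.78% were apart and higher in replicate 2, and 14.6% were apart and higher in replicate 1. In numbers these were 1028 and 1711 genes, and scaling by total counts gave 370 and 2703. Of the 10 factors, Spi1 alone was apart, and it was higher in replicate 2. The median log2 ratio was 0.40 over the 10 factors and −0.04 over all these protein-coding genes. Scaling by total counts moved the median of all genes to −0.47 and that of the 10 factors to −0.02, so the sign of a small ratio depends on the scaling. Ets2 was 0.24 with TMM, −0.18 by total counts and −0.59 by TPM. The other 9 factors kept their sign under TMM, DESeq2 size factors, total counts and TPM.

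**Figure D2:**
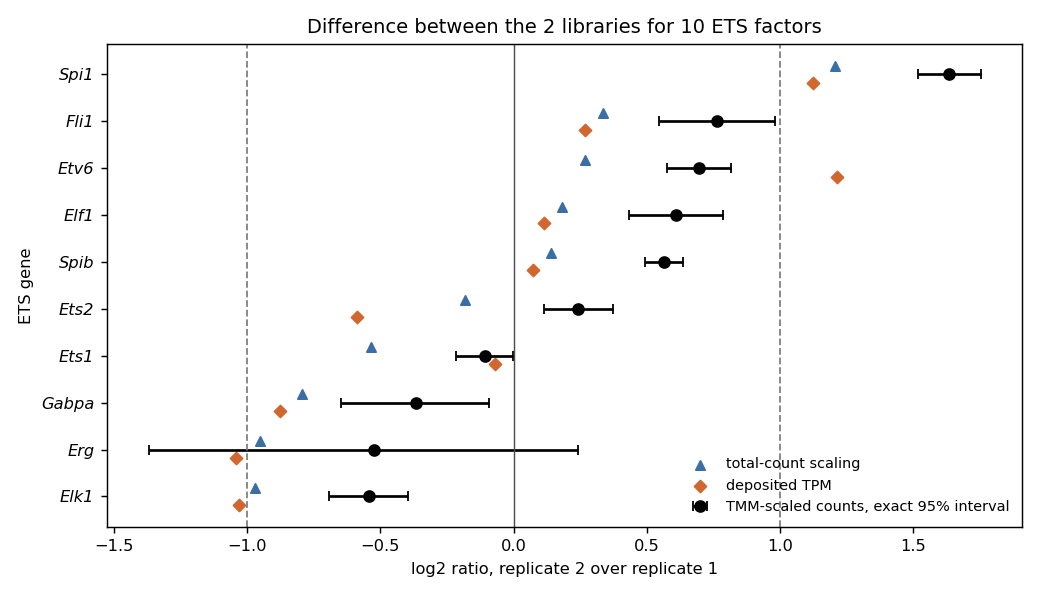
Log2 ratio of replicate 2 over replicate 1 for each of the 10 factors: black points with exact 95% intervals for TMM-scaled counts, triangles for total-count scaling and diamonds for the deposited TPM; dashed lines mark 2-fold. The interval of Spi1 lies wholly beyond 2-fold, and for Etv6 the TPM ratio of 1.21 lies above both count ratios, of 0.70 with TMM and 0.27 by total counts.

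Spi1 (ENSMUSG00000002111.8, mm10 chromosome 2, 91082390 to 91115756, plus strand) encodes PU.1, a master regulator of macrophages, granulocytes and B cells. Its level was 24.6 TPM in replicate 1 and 53.7 TPM in replicate 2, from 841 and 1859 expected counts. Replicate 2 was the higher library by 3.11-fold in TMM-scaled counts, a log2 ratio of 1.63 with a 95% interval of 1.52 to 1.75. The log2 ratio was smaller by total counts, at 1.21 (interval 1.09 to 1.33). In TPM it was 1.13 (interval 1.01 to 1.24), so the lower bound there was just beyond 2-fold. The protein-coding transcript Spi1-201 had 21.8 and 48.8 TPM, or 88.7% and 90.8% of the gene, so the same form led in both libraries. Most of the rest was in short forms: Spi1-203, of 402 bases, had 1.13 and 4.72 TPM, and Spi1-202, a processed transcript of 613 bases, had 1.47 and 0.21 TPM.

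Spib (ENSMUSG00000008193.9, chromosome 7, 44525993 to 44532071, minus strand) encodes Spi-B, the closest relative of PU.1, known from B cells and plasmacytoid dendritic cells. By TPM it was nearly level between the libraries, at 60.4 and 63.5 TPM (61.9 ± 2.18, SD, n = 2). It had 3165 and 3333 counts, the highest of the 10 factors. Its log2 ratio in TMM-scaled counts was 0.57, with an interval of 0.49 to 0.64, and in TPM it was 0.07. Spib-201 held 98.9% and 100% of its TPM. Spib thus stood above Spi1 in both libraries, and the ratio of Spi1 to Spib in TPM was 0.407 in replicate 1 and 0.846 in replicate 2. The third gene of this subfamily, Spic, which acts in red pulp macrophages, had 1.40 and 0.79 TPM.

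The Spi1 and Spib results were set beside the genes of the cells that use them. Gata1, which encodes the erythroid factor that binds PU.1, had 308 TPM in replicate 1 and 75.0 TPM in replicate 2, a log2 ratio of −1.56 (interval −1.62 to −1.49), and was apart. Gata1 exceeded Spi1 by 12.5-fold in TPM in replicate 1 and by 1.40-fold in replicate 2. Across the erythroid markers, 4 of 7 were apart and higher in replicate 1 (Ermap, Gata1, Slc4a1 and Tfrc) and none was apart the other way. Of the macrophage markers, C1qc was apart and higher in replicate 2, while Adgre1, Cd68 and Mertk were apart and higher in replicate 1. Beside these, 14.6% of all protein-coding genes tested were apart and higher in replicate 1, and 8.78% were apart and higher in replicate 2. Scaling by total counts lowers every TMM log2 ratio by the same amount, so these 4 erythroid markers could only stay apart. C1qc, higher in replicate 2, was not apart on that scale. The part of these cell types in the difference of Spi1 was not tested.

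Target genes of PU.1 did not share one direction. Of 12 myeloid targets, 9 had at least 1 TPM in both libraries. The summed level of all 12 was 147 TPM in replicate 1 and 90.8 TPM in replicate 2. Csf2ra, the alpha chain of the GM-CSF receptor, was apart and higher in replicate 2, at 17.4 and 43.8 TPM. Csf3r, the G-CSF receptor, was apart the other way, at 57.5 and 13.3 TPM, as were Itgb2 and Cd14. Csf1r, the M-CSF receptor, had 16.7 and 7.55 TPM with a log2 ratio of −0.88 (interval −1.02 to −0.74), which was not apart by TMM but was apart by total counts. The median log2 ratio of the 12 myeloid targets was −0.63. All 6 targets of B cells had at least 1 TPM in both libraries. Of them, 5 were apart and higher in replicate 1: Cd79a, Cd22, Blnk, Btk and Fcer2a. With DESeq2 size factors 4 were, without Btk. Over all protein-coding genes tested, 14.6% were apart and higher in replicate 1 with TMM, and 8.78% were apart the other way. Cd79a, a chain of the B cell receptor, had 436 and 99.4 TPM, while its partner Cd79b had 87.8 and 51.1 TPM and was not apart. The median log2 ratio of the B cell targets was −1.56. B lineage markers as a whole were led by Cd79a and Pax5, the latter at 131 and 114 TPM, and 5 of 7 reached 1 TPM in both libraries. The 5 dendritic cell markers summed to 19.7 and 23.5 TPM, and Siglech, which marks plasmacytoid dendritic cells, had 2.71 and 3.34 TPM. The part of these cell types in the level of Spib was not tested.

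IRF factors bind DNA together with PU.1 and Spi-B at composite sites. Irf8, the myeloid and B cell member, had 115 TPM in replicate 1 and 427 TPM in replicate 2, but a log2 ratio of 0.89 (interval 0.84 to 0.94) in counts, which was not apart; by TPM it was. Irf4 was low at 1.36 and 1.13 TPM. The RUNX1 complex, another partner of ETS factors, was present in both libraries: Runx1 had 91.8 and 136 TPM, and Cbfb, its binding subunit, had 5.75 and 10.2 TPM and was apart, with a log2 ratio of 1.55 (interval 1.33 to 1.79), though not by total counts or TPM.

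Fli1 (ENSMUSG00000016087.9, chromosome 9, 32422204 to 32542861, minus strand) and Erg (ENSMUSG00000040732.14, chromosome 16, 95359169 to 95586593, minus strand) form 1 subfamily and act in megakaryocytes, endothelium and blood stem cells. Fli1 was low, at 5.13 and 6.18 TPM (5.66 ± 0.742, SD, n = 2) from 323 and 390 counts. Fli1-201 held 100% of the TPM in both libraries. The log2 ratio of Fli1 was 0.27 in TPM. In TMM-scaled counts it was 0.76 with an interval of 0.55 to 0.98, just inside 2-fold. With DESeq2 size factors the interval was 0.58 to 1.01. Erg was the lowest of the 10 factors, at 1.42 and 0.69 TPM from 43 and 21 counts. The interval of its log2 ratio ran from −1.37 to 0.24 with TMM and from −1.80 to −0.18 by total counts, so whether it includes 0 depends on the scaling. Its transcript shares rest on the same few counts: the leading form was an unnamed transcript of 1280 bases in replicate 1 and Erg-205 in replicate 2.

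Each gene of this pair lies next to a gene of the ETS1 subfamily. Fli1 and Ets1 lie 93.4 kb from each other on chromosome 9, on opposite strands, and Erg and Ets2 lie 115.5 kb from each other on chromosome 16, also on opposite strands. In both places the ETS1-type gene had the higher level in each library. Ets1 had 30.8 and 29.4 TPM beside the 5.13 and 6.18 TPM of Fli1. Ets2 had 38.9 and 25.8 TPM beside the 1.42 and 0.69 TPM of Erg.

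Among 9 megakaryocyte genes known as targets of Fli1 and Gabpa, 5 had at least 1 TPM in both libraries. They were led by Gp5 (283 and 293 TPM), Itga2b (32.1 and 30.4 TPM) and Gp9 (27.5 and 25.2 TPM), the platelet glycoprotein genes, none of which was apart. Gp1bb and Selp were apart and higher in replicate 1. The list's median log2 ratio was 0.36 with TMM and −0.07 by total counts. Klf1, the erythroid factor that Fli1 opposes, had 1605 and 1053 TPM, which was 313-fold and 170-fold the level of Fli1.

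Ets1 (ENSMUSG00000032035.11, chromosome 9, 32636221 to 32757820, plus strand) encodes the founding member of the family, a factor of lymphoid cells whose DNA binding is restrained by neighbouring segments, among them the one encoded by exon VII in the classical numbering. By TPM the gene level hardly differed between the libraries (30.1 ± 1.04 TPM, SD, n = 2), from 1759 and 1161 counts. In TMM-scaled counts the log2 ratio was −0.11, with an interval of −0.22 to −0.00. By total counts it was −0.53 (interval −0.64 to −0.43), so how close the libraries were depends on the scaling. The shares of the transcripts behind the gene level differed between the libraries. Ets1-201, the full form with 8 exons and 1320 coding bases, had 9.48 TPM in replicate 1 and 1.38 TPM in replicate 2. Ets1-202, which lacks the 261 bases of exon 6 of Ets1-201 (chr9:32738099-32738359) and has 1059 coding bases, was listed at 0 TPM in replicate 1 and at 14.4 TPM in replicate 2. Ets1-206 had 21.3 and 12.6 TPM; it keeps 51 bases of that exon, lacks the next exon of 119 bases (chr9:32752799-32752917), and has 816 coding bases.

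The bases on either side of joined exons in these 3 forms were taken from the GENCODE M21 transcripts (mm10, plus strand, 5′ to 3′). Among the 3 forms, those printed for Ets1-202 and Ets1-206 are each found in that form alone. The one printed for Ets1-201 is also annotated in Ets1-206, which enters exon 6 at the same base, so it tells Ets1-201 apart from Ets1-202 only. The last 20 bases of the upstream exon are in lower case and the first 20 of the downstream exon in capitals.
Ets1-201, exon 5 to exon 6: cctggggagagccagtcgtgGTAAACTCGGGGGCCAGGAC
Ets1-202, exon 5 to its exon 6: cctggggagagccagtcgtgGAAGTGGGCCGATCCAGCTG
Ets1-206, shortened exon 6 to its last exon: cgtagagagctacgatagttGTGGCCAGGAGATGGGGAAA
Ets1-201 and Ets1-202 leave exon 5 at the same base (chromosome 9, 32734188) and enter different exons, at 32738099 and 32752799. Ets1-206 leaves the shortened exon at 32738149 and enters the last exon at 32754213, the same base at which the other forms enter it. It reads that exon in another frame (frame 1, against frame 0 in Ets1-201), and its coding part there is 35 bases, against 210 in Ets1-201. As background, the ETS domain of Ets1 is encoded at the 3′ end of its coding sequence.

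By share of the gene's TPM, Ets1-206 led in replicate 1 with 69.3%. In replicate 2 Ets1-202 led with 49.0%, and Ets1-206 held 42.9%. By share of expected counts, which does not divide by length, Ets1-201 led in replicate 1 with 52.7% and Ets1-202 in replicate 2 with 45.1%. Ets1-206 held 47.3% and 42.4% of the counts. The authors' deposited interval for Ets1-202, whose level is not stated, had an upper bound of 1.05 TPM in replicate 1 and ran from 11.3 to 16.7 TPM in replicate 2, so the bounds did not overlap. The files hold the authors' estimates of these forms and no reads across the joined exons.

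**Figure D3:**
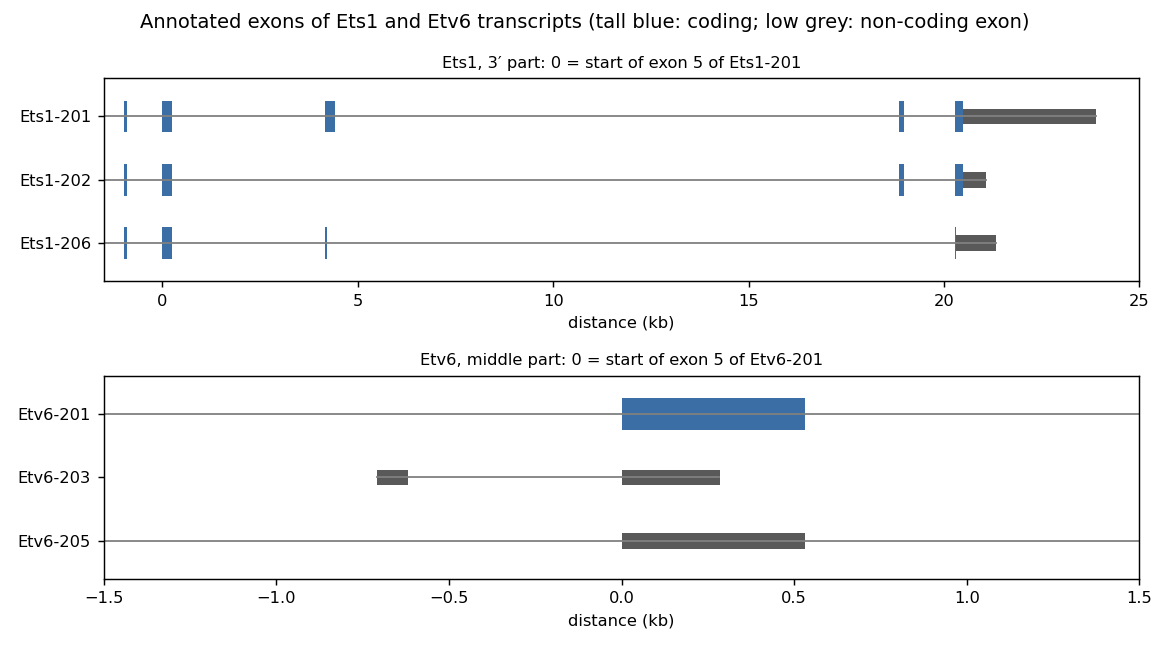
Annotated exons of 3 Ets1 transcripts (top) and 3 Etv6 transcripts (bottom) against distance in kb from the start of exon 5 of the 201 form; tall blue boxes are coding and low grey boxes are non-coding exon. Ets1-202 lacks the 261-base exon, Ets1-206 keeps 51 bases of it and lacks the next one, and Etv6-203 joins an exon inside an intron to part of a coding exon.

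Ets2 (ENSMUSG00000022895.10, chromosome 16, 95702075 to 95721051, plus strand), a widely expressed target of MAP kinase signalling, had 38.9 and 25.8 TPM (32.4 ± 9.21, SD, n = 2). Most of that level came from 1 short transcript, ENSMUST00000145509.3, of 654 bases, whose identifier was not matched in the newer annotation. It held 72.7% and 62.0% of the gene's TPM but only 27.5% and 18.3% of its expected counts. The coding transcript Ets2-201, of 3890 bases, held 71.9% and 81.6% of the counts, and its level was 10.3 and 9.76 TPM (10.0 ± 0.354).

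Etv6 (ENSMUSG00000030199.12, chromosome 6, 134035700 to 134270158, plus strand) encodes TEL, a repressor needed for blood stem cells in the marrow and a frequent fusion partner in leukemia. As a gene it had the highest level of the 10 factors, at 66.9 TPM in replicate 1 and 155 TPM in replicate 2 (111 ± 62.5, SD, n = 2). Most of that was Etv6-203, a processed transcript of 373 bases with no coding part, at 52.0 and 147 TPM, or 77.7% and 94.9% of the gene. Its first exon of 89 bases (chr6:134247565-134247653, plus strand) lies in the 14620-base intron 4 of Etv6-201, and its second exon of 284 bases is the start of the 531-base coding exon 5 of Etv6-201. The first exon is what sets this form apart from Etv6-201, so it is printed here from GENCODE M21 (mm10) in capitals, followed by the first 20 bases of the second exon in lower case.
Etv6-203: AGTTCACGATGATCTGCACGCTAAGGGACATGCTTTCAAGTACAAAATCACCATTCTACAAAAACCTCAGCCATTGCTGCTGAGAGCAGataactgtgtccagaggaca

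The coding transcript Etv6-201, of 5548 bases, had 6.09 TPM in replicate 1 and 4.24 TPM in replicate 2, and the retained-intron transcript Etv6-205 had 8.82 and 3.73 TPM. By TPM both were thus higher in replicate 1, and Etv6-203 was higher in replicate 2. In expected counts the gene had 1035 and 1193, of which Etv6-201 took 651 and 456 and Etv6-203 took 247 and 680. The authors' deposited interval for Etv6-203 ran from 42.0 to 57.7 TPM in replicate 1 and from 131 to 154 TPM in replicate 2. The gene's log2 ratio was 0.70 in counts (interval 0.57 to 0.82) and 1.21 in TPM, so Etv6 lay beyond 2-fold by TPM only. An annotated antisense gene, Gm17089, shares 135 exon bases with Etv6 and had 0 counts in both libraries. Counting by strand is not given in the sources used here.

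**Figure D4:**
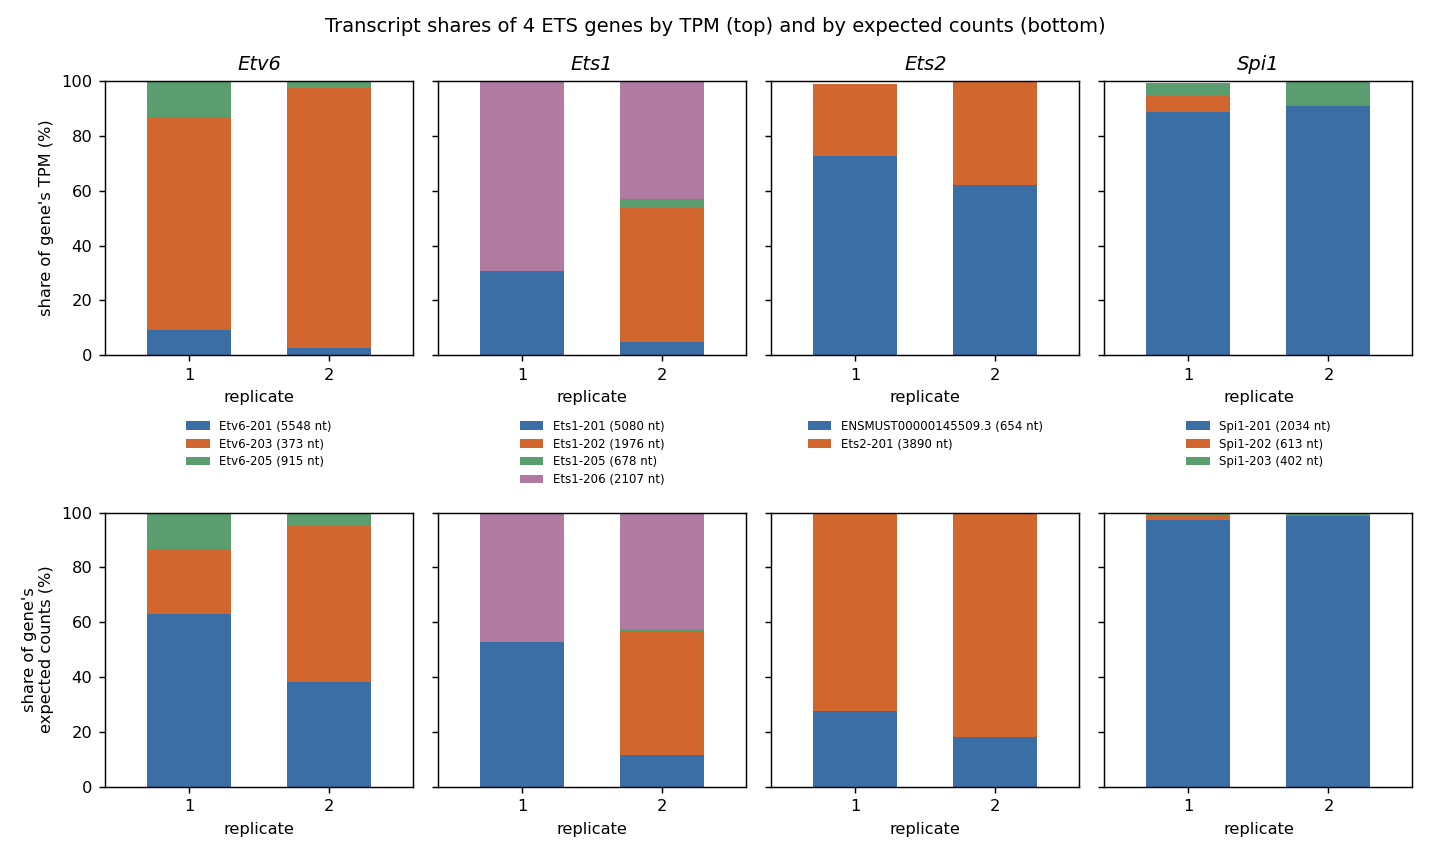
Share of each transcript in its gene, in percent, for Etv6, Ets1, Ets2 and Spi1 in replicates 1 and 2, by TPM (top) and by expected counts (bottom); transcripts with at least 1% in some bar are drawn, with their length in bases. Short transcripts take most of the TPM of Etv6 and Ets2 and a smaller share of the counts. The shares of the Ets1 forms differ between libraries.

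Counting only transcripts annotated as protein coding, the order of the 10 factors changed at the top. Spib then led with 61.9 ± 2.19 TPM (SD, n = 2), followed by Spi1 (38.3 ± 21.5), Ets1 (30.1 ± 1.03), Elk1 (12.5 ± 6.15), Ets2 (10.0 ± 0.354), Elf1, Fli1, Etv6 (5.17 ± 1.31), Gabpa and Erg. Etv6 moved from rank 1 to rank 8. This count was added after the data were seen, and it leaves out 4 transcripts of Erg and 4 of Ets2 whose identifiers were not matched. The corepressor genes that TEL recruits were present in both libraries: Ncor1 had 85.8 and 119 TPM, Sin3a 38.1 and 11.9 TPM, and Hdac3 18.9 and 10.2 TPM. None of the 3 was apart with TMM, with log2 ratios in counts of 0.13, −1.01 and −0.42, but Sin3a was by total counts and TPM.

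Elf1 (ENSMUSG00000036461.11, chromosome 14, 79481194 to 79582494, plus strand), an activator of lymphoid and erythroid genes, had 6.35 and 6.87 TPM (6.61 ± 0.368, SD, n = 2), from 512 and 556 counts, all of it in Elf1-201. Its log2 ratio in counts was 0.61 (interval 0.43 to 0.79), and in TPM it was 0.11. Elf1 shares 327 exon bases with Wbp4 on the opposite strand, which had 3.74 and 7.73 TPM, and without strand the reads there cannot be told apart. Elf1 also shares 308 words of 25 bases with Slc30a7 (2.27 and 0.19 TPM), so reads could be split between these genes. The expected counts were whole numbers in both libraries for Elf1, for Slc30a7 (398 and 33) and for Wbp4 (245 and 508), so no split of reads showed in them.

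Elk1 (ENSMUSG00000009406.9, chromosome X, 20933395 to 20950608, minus strand) is a ternary complex factor: it sits on DNA beside SRF and switches on immediate early genes when MAP kinases phosphorylate it. Its level was 16.9 TPM in replicate 1 and 8.26 TPM in replicate 2, from 1139 and 556 counts, with Elk1-201 holding 99.7% and 98.8%. It shares 76 exon bases with Uxt on the same strand, which had 13.3 and 6.23 TPM. The log2 ratio was −0.54 (interval −0.69 to −0.40), which was not apart. Its relatives Elk3 (11.6 and 3.90 TPM) and Elk4 (9.71 and 4.35 TPM) were also higher in replicate 1 by TPM and were not apart in counts, and the interval of the count ratio of Elk4 included 0. Srf itself had 96.7 and 105 TPM and a log2 ratio in TMM-scaled counts of 0.61 (interval 0.56 to 0.65), which was not apart.

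Of 8 target genes of that complex, 5 were apart and higher in replicate 2 with TMM and none was apart the other way. Over all protein-coding genes tested, 8.78% were apart and higher in replicate 2. By total counts or TPM, 2 of the 8 target genes were (Fos and Fosb), beside 370 and 454 of all 11708 genes. Of the 8, 7 had at least 1 TPM in both libraries, and Fosb reached it in replicate 2. Those apart with TMM were the factors Fos (10.8 and 46.6 TPM), Fosb (0.59 and 3.01 TPM) and Junb (231 and 380 TPM), together with Ier2 (81.5 and 156 TPM) and the survival gene Mcl1 (278 and 566 TPM). Egr1, at 152 and 176 TPM, and Egr2, at 7.03 and 6.87 TPM, were not. The list's median log2 ratio was 1.25 with TMM, beside −0.04 over all protein-coding genes tested, and 0.82 by total counts, beside −0.47.

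**Figure D5:**
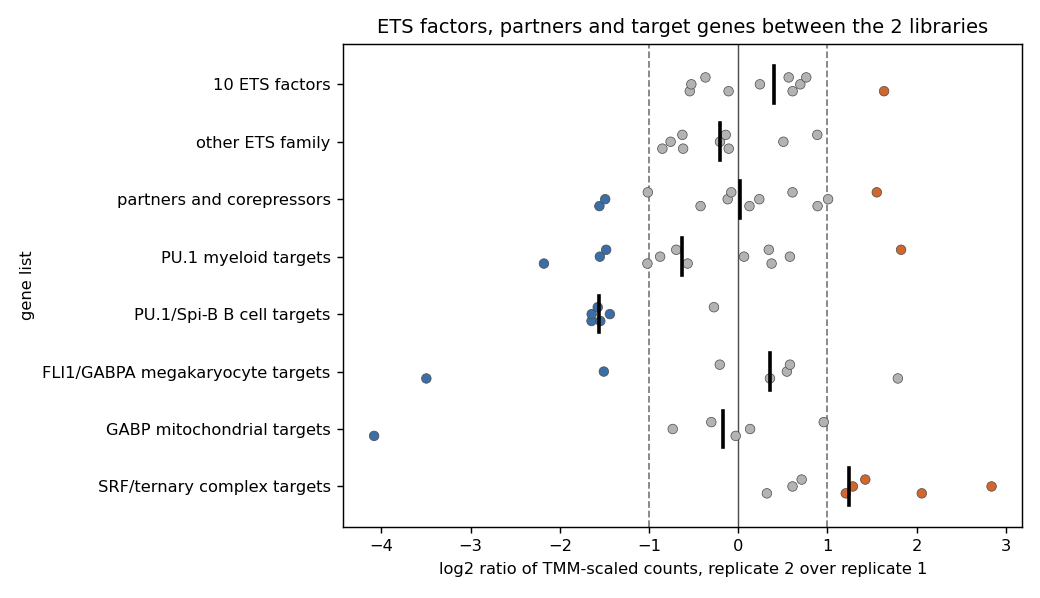
Log2 ratio of TMM-scaled counts, replicate 2 over replicate 1, for every gene with at least 20 counts in 8 lists; bars mark list medians, dashed lines mark 2-fold, and coloured points were apart (orange higher in replicate 2, blue in replicate 1). Of the 10 ETS factors only Spi1 is coloured, B cell targets sit mostly at the left and ternary complex targets at the right.

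Gabpa (ENSMUSG00000008976.12, chromosome 16, 84834925 to 84863779, plus strand) encodes the DNA-binding subunit of GABP, which drives housekeeping and mitochondrial genes with a beta subunit. It was low, at 3.21 and 1.75 TPM (2.48 ± 1.03, SD, n = 2) from 305 and 168 counts, with a log2 ratio of −0.37 (interval −0.65 to −0.09). Gabpa-201 held 98.3% and 100% of the TPM, or 81.7% and 78.8% by the authors' posterior mean. Of the genes of its partner subunits, Gabpb1 had 4.66 and 3.40 TPM, and Gabpb2 had 7.01 and 2.34 TPM and was apart, with a log2 ratio of −1.49 (interval −1.69 to −1.30). Gabpa shares 397 exon bases with Atp5j on the opposite strand, and Atp5j had 40.9 and 40.6 TPM. Of 7 mitochondrial genes known as GABP targets, 6 had at least 1 TPM in both libraries, led by Atp5b (1315 and 1459 TPM), Cox5b (848 and 1025 TPM) and Cox4i1 (91.2 and 71.9 TPM). With TMM, Cox7c alone was apart among them, at 111 and 4.73 TPM. The expected counts of Cox5b and Cox7c, and of Gp1bb among the megakaryocyte genes, were not whole numbers, as happens where reads are split between similar sequences, so these values are uncertain.

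Of the rest of the ETS family, 17 genes, 8 had at least 1 TPM in both libraries, beside 41.6% of all protein-coding genes. Etv3l, which is among the 17, is annotated as an unprocessed pseudogene. It had 0 counts in both libraries, as did Elf3, Elf5, Etv1 and Fev, mostly genes of epithelia or neurons. For these 5, that allows up to 0.819 TPM for Etv3l and no more than 0.185 TPM for each of the others. The median of the 17 mean levels was 1.09 TPM. Erf, a repressor controlled by ERK, had the highest level of the whole family by mean, at 141 and 142 TPM (141 ± 0.537, SD, n = 2), which was 2.33-fold and 2.23-fold the level of Spib. The PEA3 genes Etv5 (32.1 and 44.2 TPM) and Etv4 (10.7 and 14.2 TPM), the repressor Etv3 (15.9 and 6.86 TPM), and Elf2 (20.4 and 11.6 TPM) and Elf4 (10.3 and 6.35 TPM) were intermediate. None of the 9 genes of this group with at least 20 counts was apart with TMM; Etv5 was by total counts, and Elk3 and Etv3 were by TPM, each higher in replicate 1 on that scale. In all, 17 of the 27 family genes had at least 1 TPM in both libraries.

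The same transcript led in both libraries in 8 of the 10 factors, a share near the 68.6% of 7391 protein-coding genes with a mean of at least 1 TPM and more than 1 transcript row. The exceptions were Ets1 and Erg. In 5 factors (Spib, Fli1, Elf1, Elk1 and Gabpa) a single transcript held over 90% of the TPM in both libraries. By expected counts the leading transcript was the same in 7 of the 10, since Etv6-201 led in replicate 1 and Etv6-203 in replicate 2.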

How the data were processed

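RNA of 2 replicate libraries was analysed from 1 gene table and 1 transcript table each, which the authors had built on mm10 and GENCODE M4, per the file headers. Neither aligner nor counting program is given in the sources used here. The authors deposited expected counts (estimated fragments, not always whole numbers), TPM over all rows of a table, FPKM and, per transcript, the percent of the gene's TPM. The 10 factors and the lists of partners, targets and markers were chosen with earlier results of these data known. A further erythroid marker is not reported here. Of 69691 gene rows, 43346 had Ensembl identifiers and 42462 of these matched GENCODE M21 without version, which gave symbols, types and positions. Of 42 transcript rows of the 10 factors, 34 matched.

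A level is the deposited TPM in each library, with mean and SD (n = 2). Rounded expected counts were scaled by TMM in edgeR 4.0.16 (R 4.3.3). The ratio used a prior count of 0.5, an exact binomial 95% interval and at least 20 counts over both libraries. It was tested on simulated data. With 1 group, no p-value was computed. Named genes were the 10 factors, other family genes with a mean of at least 1 TPM, and the 3 highest of each list; genes apart between the libraries, the remaining partners and Spi1-linked markers were named after their values were seen. Alternatives were DESeq2 1.42.0 size factors, total counts, a prior count of 5, other minimums, FPKM, posterior mean TPM and TPM rescaled over nuclear protein-coding genes. Near-identical sequence was sought as 100 or more shared words of 25 bases; floors for a count of 0 used 3 counts and cover counting error only. Software was Python 3.11.15 (scipy 1.17.1, pandas 2.3.3, numpy 2.4.6, matplotlib 3.10.9).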

Additional observations from a re-analysis of the deposited data

How the results depend on the processing

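The count of factors with at least 1 TPM in both libraries was 9. It was 10 at a minimum of 0.5 TPM, 8 at 2 TPM, and 9 by posterior mean TPM, FPKM, rescaled TPM and, chosen after the data were seen, protein-coding transcripts alone; with 1 library left out it was 9 to 10, and for the other family genes 8 to 9. Factors more than 2-fold apart numbered 1 (Spi1) with TMM, DESeq2 size factors and total counts. A prior count of 5 and no count filter also gave 1, but they could not change it, since the interval does not use the prior count and all 10 factors pass the filter. By the ratio of deposited TPM there were 2, Spi1 and Etv6; the level of Etv6 by TPM rests on a transcript of 373 bases. The count of genes apart over all protein-coding genes moved from 1028 higher in replicate 2 and 1711 higher in replicate 1 to 370 and 2703 by total counts and 454 and 2747 by TPM. Log2 ratios moved beyond their interval for 9 of 10 factors by total counts and 8 of 10 by TPM, and for 0 by DESeq2 size factors. Total counts and DESeq2 size factors each shift all genes by the same amount. Those counts therefore show only whether that shift exceeds a gene's interval. By total counts and TPM, 1 gene changed sign, Ets2, whose call was not apart. Levels moved by more than 1 SD for 4 of 10 factors by FPKM and 3 of 10 by rescaled TPM. Depth limits Erg most, with 64 counts in all. No paired analysis was possible because there was only 1 group.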
